A study of Mus musculus with 4 samples.

Results

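The data concern 10 genes of the YAP-TEAD system in Hepa1-6, an established line of mouse hepatocellular carcinoma cells. They are the coactivator genes Yap1 and Wwtr1 (which encodes TAZ), the DNA-binding partner gene Tead1, and the target genes Ctgf, Cyr61, Ankrd1, Amotl2, Ajuba, Lats2 and Axl. They were taken by gene symbol from the 54838 genes listed for every library, each symbol stood for a single entry, and all 10 passed the filter on low counts with 12510 genes in all. RNA was sequenced in 2 libraries of cells with wild-type Acvr2a (NC) and 2 libraries of Acvr2a knockout cells (KO). Acvr2a encodes a type II receptor for activin, and the series title links its loss to lactate production, glycolysis and regulatory T cells. The design text calls the knockout cells subclones without saying how many there were, and neither a further allele nor a treatment is named for either group. The labels do not say whether the libraries of a group came from separate cultures. The p-values therefore measure only counting error and the spread between these libraries, which may be technical. That spread was estimated for each gene with information shared across all genes tested.

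In the Hippo pathway, a kinase cascade ending in LATS1 and LATS2 phosphorylates YAP and TAZ, which are then held in the cytoplasm or degraded. Unphosphorylated YAP and TAZ enter the nucleus and bind TEAD factors, which recognise a short DNA element and switch on genes of growth, adhesion and matrix signalling. Several targets, among them Lats2, Amotl2 and Ajuba, encode proteins that feed back on the pathway, and in the liver YAP is known for its control of organ size and of the balance between hepatocyte and bile duct identity. The values here are RNA levels, which do not read the phosphorylation or location of YAP and TAZ.

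Library totals lay between 11597945 and 13910593 expected counts. Acvr2a itself had 81.0 and 108.4 expected counts in the NC libraries, against 74.7 and 97.4 in the KO libraries. Its log2 fold change was -0.21 (edgeR quasi-likelihood, SE 0.20, adjusted p = 0.433), so its RNA level did not set the groups apart and the group names follow the labels. Hepatocyte markers were checked against the labelled cell type: Alb, Trf and Afp were present in every library, whereas Ttr had at most 1 count. Serpina1a had at most 4.52 expected counts in a library, Apoa1 had 17 to 39 and Apoa2 had 15 to 19. Summed TPM (the authors' levels, scaled by transcript length and library) over the 10 hepatocyte markers was 1211 to 1275 in NC and 1427 to 1468 in KO. Without Alb the groups overlapped, with 777 and 739 TPM in NC against 803 and 755 in KO. Of markers of other cell types, Ptprc had at most 2 counts in a library and the defining T-cell gene Cd3e had 0. The summed TPM of the 6 leukocyte markers, 24.1 and 27.9 in NC and 55.7 and 67.9 in KO, came almost wholly from Cd68. The 6 endothelial markers summed to between 0.39 and 1.15 TPM, with Cdh5 and Tek at 0. The 8 fibroblast and stellate markers summed to 1036 and 1098 TPM in NC, against 1241 and 1244 in KO. Nearly all of it was Dcn, and Col3a1 and Lum had 0 counts. Without Dcn the list summed to 3.76 and 4.81 TPM in NC, against 12.2 and 10.6 in KO. Of its 4 tested genes 3 were higher in KO past 0.05 and 0 lower, namely Col1a1 (log2 fold change 2.73, with at most 6 counts in an NC library and 41 in a KO library), Des (1.28) and Pdgfra (0.97). Among all genes tested, 37.9% passed in either direction. The part of these marker differences in the results below was not tested.

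TEAD factors bind the core CATTCC, or GGAATG when read on the other strand. The sequences upstream of the members' start sites were therefore searched on both strands over the 250 bases before each RefSeq start (GRCm38.p6). RefSeq windows were found for 8 of the 10 members, Cyr61 under its current symbol Ccn1, and not for Ctgf and Tead1. At least 1 match stood upstream of 7 of these 8 genes, against 14.4% of the 27025 genes with a window in the same table. The members were listed as genes of the YAP-TEAD system, so this share describes them and tests nothing. Cyr61 is shown because it had the largest change, Wwtr1 because it is the coactivator gene that rose, Ajuba because it holds 2 matches, and Lats2 because it is the member that fell and holds none. Matches are in capitals, and each sequence reads 5′ to 3′ on the gene's strand, which is the minus strand for all 4. None of the 4 windows overlaps a GENCODE exon, but some windows not shown do. Such exons cover all 250 bases of the Ankrd1 window, 136 of Amotl2, 17 of Yap1 and 34 of the second Wwtr1 window.
Cyr61, chr3:145649986-145650235: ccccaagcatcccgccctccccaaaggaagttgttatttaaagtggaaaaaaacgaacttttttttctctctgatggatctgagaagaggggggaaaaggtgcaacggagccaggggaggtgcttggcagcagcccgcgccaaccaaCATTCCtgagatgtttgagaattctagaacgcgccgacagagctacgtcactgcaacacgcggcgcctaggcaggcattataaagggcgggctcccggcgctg
Wwtr1, chr3:57575911-57576160: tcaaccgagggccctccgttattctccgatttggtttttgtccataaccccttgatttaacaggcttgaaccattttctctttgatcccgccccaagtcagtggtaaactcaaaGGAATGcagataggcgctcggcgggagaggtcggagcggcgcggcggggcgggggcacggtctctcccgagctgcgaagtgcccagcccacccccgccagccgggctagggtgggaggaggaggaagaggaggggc
Ajuba, chr14:54577662-54577911: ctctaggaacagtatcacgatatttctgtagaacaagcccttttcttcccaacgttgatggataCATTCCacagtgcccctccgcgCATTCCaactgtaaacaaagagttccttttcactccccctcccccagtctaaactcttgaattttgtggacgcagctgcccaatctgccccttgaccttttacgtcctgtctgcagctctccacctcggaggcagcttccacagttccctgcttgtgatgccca
Lats2, chr14:57746124-57746373: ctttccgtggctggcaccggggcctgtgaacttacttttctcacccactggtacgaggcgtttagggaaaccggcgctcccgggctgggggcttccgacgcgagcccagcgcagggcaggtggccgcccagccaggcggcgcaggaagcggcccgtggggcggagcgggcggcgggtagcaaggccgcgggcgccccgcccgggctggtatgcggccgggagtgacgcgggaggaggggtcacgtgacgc

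The match began 103 bases upstream of the Cyr61 start and 136 bases upstream of the Wwtr1 start shown, the first of 2. In Ajuba the 2 matches began 186 and 164 bases upstream. Amotl2 had a match beginning 65 bases upstream, Yap1 at 141, Axl at 233, and Ankrd1 had 2 at 210 and 123. Both Lats2 starts lacked the core in this window. Other elements found at genes of this kind were searched in the same windows: the AP-1 element TGANTCA stood upstream of 7.82% of all genes, the CArG box bound by SRF upstream of 1.62%, and neither upstream of any of the 8 members. A match is a description of letters and not a measured binding site, and matched genes were found both among those that changed (Cyr61, Amotl2, Ankrd1, Wwtr1) and among those that did not pass the test (Yap1, Ajuba, Axl).

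**Figure D1:**
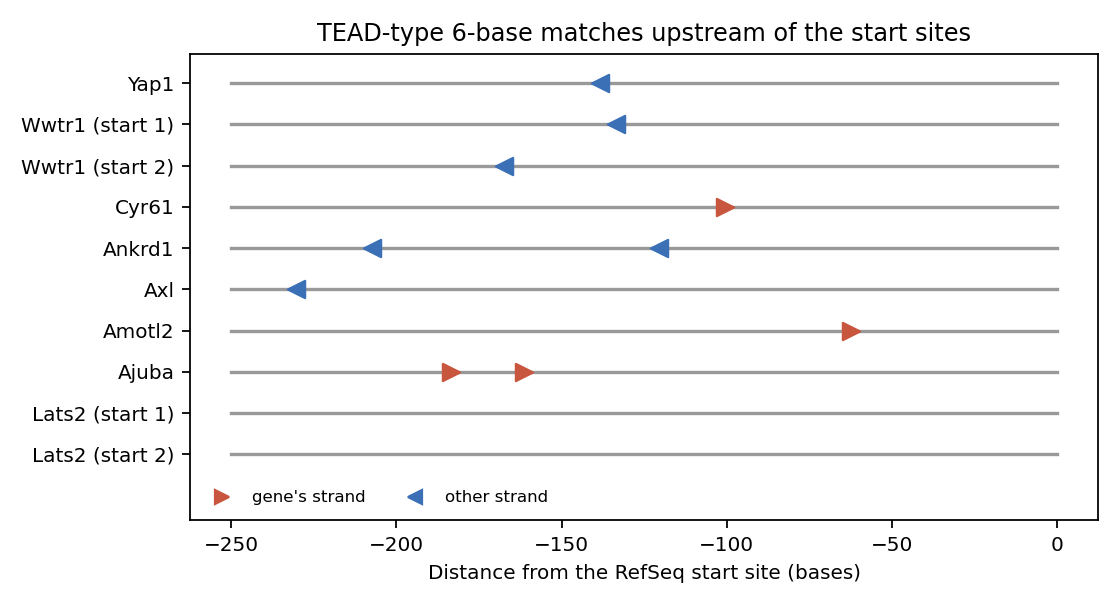
Positions of the 6-base TEAD core in the 250 bases before each RefSeq start of 8 members (x axis: distance from the start in bases; one line per start site; arrowheads give the strand of the match). Of the 8 genes, 7 have at least 1 match, and the 2 Lats2 starts have none.

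Of the 10 genes, 6 passed 0.05 after adjustment (edgeR's quasi-likelihood test), 5 of them higher in KO (Cyr61, Amotl2, Ctgf, Ankrd1 and Wwtr1) and 1 lower (Lats2). Among all 12510 genes tested, 37.9% passed, 19.7% higher and 18.2% lower. The median log2 fold change of the 10 genes was 0.27, against -0.0037 over all genes tested. The CPM (counts scaled by library size) of the groups did not overlap for 9 of the 10, where 69.4% of all tested genes did not overlap. The median of the 10 genes was 0.19 without NC 1, 0.35 without NC 2, 0.29 without KO 1 and 0.20 without KO 2. The calls of Wwtr1, Ankrd1 and Lats2 did not hold without NC 1, and held when any other library was left out. All adjusted p-values below are from edgeR's quasi-likelihood test over all genes tested.

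**Figure D2:**
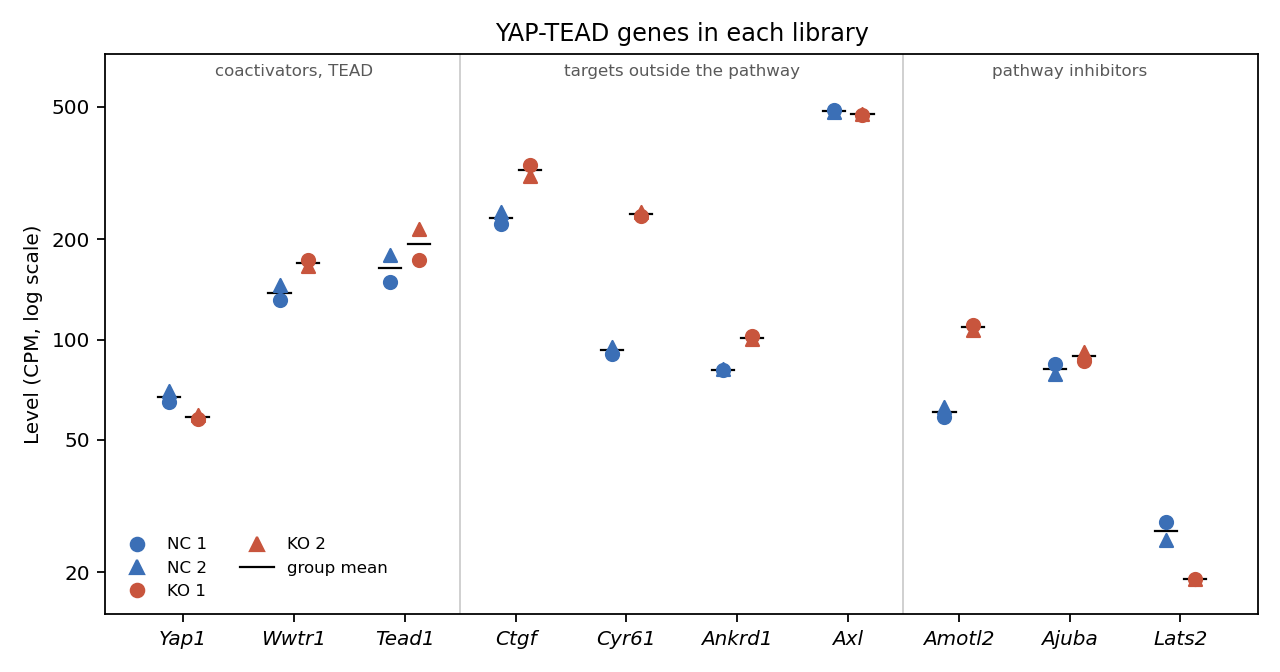
CPM of the 10 genes in each library on a log axis (circles: first library of a group, triangles: second; blue NC, red KO; bars: group means of 2). Cyr61 and Amotl2 show the widest gaps between the groups, and the libraries of the groups overlap only for Tead1.

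The coactivator and TEAD genes came first. Yap1 (chromosome 9, 7931999 to 8004596) was at 65.0 and 70.0 CPM in NC and at 57.9 and 59.3 CPM in KO. Both KO libraries lay below both NC libraries, but the difference of -0.20 on the log2 scale (95% interval -0.40 to -0.0065, SE 0.10) missed 0.05 after adjustment (adjusted p = 0.0964). On the TPM scale the Yap1 libraries overlapped, with 19.5 and 24.2 in NC against 22.3 and 19.3 in KO. The fold change of log2(TPM + 1) was -0.063. Wwtr1 (chromosome 3, 57455649 to 57575910), whose product TAZ is the paralog of YAP, moved the other way. It was at 131 and 146 CPM in NC and at 174 and 166 CPM in KO, a 1.23-fold rise (log2 fold change 0.29, SE 0.093, adjusted p = 0.0137). Without NC 1 the Wwtr1 value was 0.22 (adjusted p = 0.203).

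Because TPM is scaled by length, the 2 coactivator genes can be set against each other within a library. Wwtr1 stood at 1.61 and 1.51 times the TPM of Yap1 in NC and at 2.03 and 2.14 times in KO. The ratio was 1.56 ± 0.068 in NC and 2.09 ± 0.080 in KO (SD, n = 2), with no overlap between the groups. An exact permutation test (two-sided) gave p = 0.333, the smallest value that 2 libraries against 2 allow.

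Tead1 (chromosome 7, 112679318 to 112906807) was the most variable member. It was at 149 and 180 CPM in NC and at 174 and 215 CPM in KO, so the groups overlapped. Its log2 fold change was 0.24 (SE 0.11, adjusted p = 0.0699), and the second library of each group was the higher one. The call changed with the library left out: Tead1 passed without NC 2 (0.39, adjusted p = 0.0123) and without KO 1 (0.38, adjusted p = 0.00148). Without NC 1 the value was 0.11 (adjusted p = 0.572) and without KO 2 it was 0.080 (adjusted p = 0.623). It also passed with the replicate number as a block (0.24, adjusted p = 0.0411), with upper-quartile factors (0.27, adjusted p = 0.0481) and in the robust fit (0.24, adjusted p = 0.0474).

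The 4 TEAD genes encode proteins that share the same DNA element, so their relative levels were compared by TPM. Tead2 made up 50.8% ± 0.15 of the summed TEAD TPM in NC and 51.3% ± 2.73 in KO (SD, n = 2), the highest share in all 4 libraries. Tead1 made up 15.8% and 18.2% in NC and 16.9% and 23.2% in KO. Tead4 made up 13.2% and 11.0% in NC, against 8.32% and 8.58% in KO. Its log2 fold change was -0.29 (SE 0.12, adjusted p = 0.0587). Tead2 (-0.07, adjusted p = 0.588) and Tead3 (0.26, adjusted p = 0.0559) did not pass either, so none of the 4 TEAD genes passed in the fit reported here. Tead4 passed without KO 1, as Tead1 did.

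**Figure D3:**
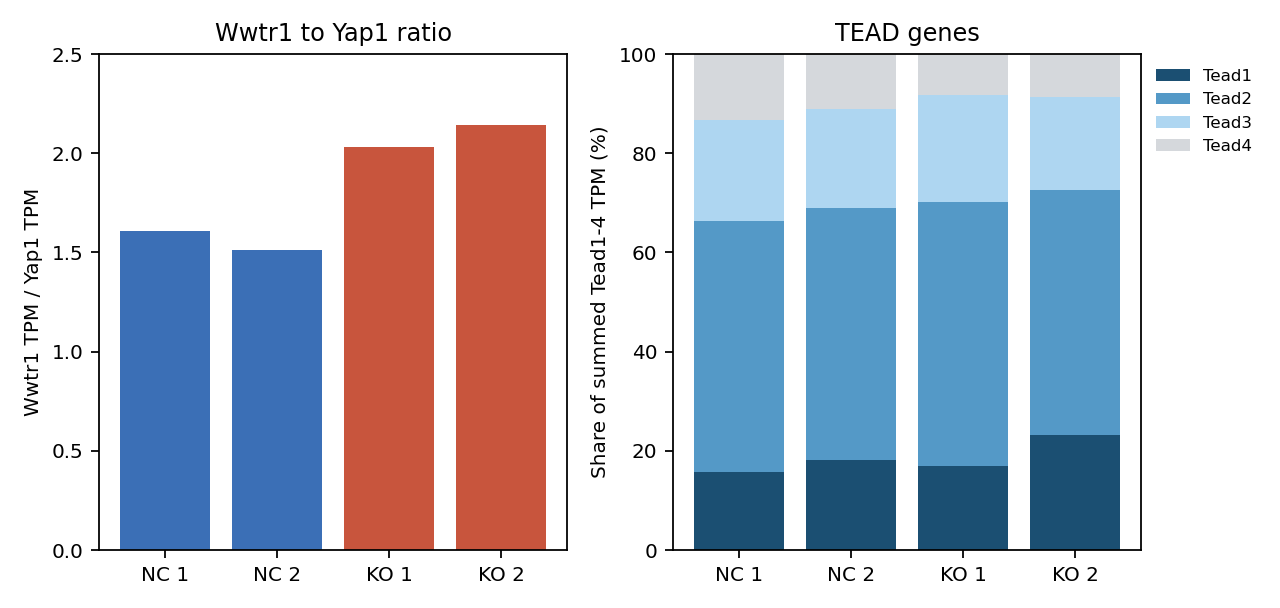
Left, the Wwtr1 TPM divided by the Yap1 TPM in each library (bars from 0); right, the share of each TEAD gene in the summed TPM of Tead1 to Tead4 (percent). The ratio is 1.51 to 1.61 in NC and 2.03 to 2.14 in KO, and Tead2 holds the widest segment in every library.

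Among the target genes outside the pathway, the matricellular genes changed most. Cyr61 (chromosome 3, 145646976 to 145649981), which encodes the secreted CCN1, was at 90.8 and 95.1 CPM in NC and at 235 and 242 CPM in KO. Replicates differed far less than the groups, and the level rose 2.56-fold (log2 fold change 1.36, SE 0.092, adjusted p = 9.32e-12). Ctgf (chromosome 10, 24595442 to 24598683), which encodes its relative CCN2, was at 223 and 242 CPM in NC and at 336 and 311 CPM in KO. It rose 1.39-fold (0.47, SE 0.092, adjusted p = 0.000193). Exons of Ctgf overlap those of Gm15270 on the other strand, the only member for which the expected counts were not whole numbers. The counts of Ctgf and Gm15270 summed to whole numbers within 0.02 in every library, and Gm15270 took 0.17% to 0.38% of each sum. Yap1 overlaps exons of Gm20416 on the other strand and Lats2 those of Gm49361 on the same strand. Gm20416 and Gm49361 had 0 counts in every library.

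Ankrd1 (chromosome 19, 36111961 to 36120099), which encodes an ankyrin-repeat protein of muscle and of stretched or injured cells, was at 80.8 and 81.4 CPM in NC and at 102 and 101 CPM in KO. The rise was 1.25-fold (0.32, SE 0.092, adjusted p = 0.00674), and without NC 1 the value was 0.31 (adjusted p = 0.0582). Axl (chromosome 7, 25757273 to 25788705), a receptor tyrosine kinase gene, barely varied, with 488 and 481 CPM in NC against 473 and 477 CPM in KO. Its log2 fold change was -0.030 (SE 0.091, 95% interval -0.22 to 0.16, adjusted p = 0.827), and it changed sign on the TPM scale (0.053). Ctgf, Cyr61, Ankrd1 and Axl thus held both the largest and the smallest change among the 10.

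The 3 targets that act back on the pathway went in different directions. Amotl2 (chromosome 9, 102716672 to 102733418), an angiomotin-family gene whose product binds YAP and keeps it at junctions, was at 58.5 and 62.9 CPM in NC and at 111 and 107 CPM in KO. It rose 1.79-fold (0.84, SE 0.095, adjusted p = 9.50e-08). Ajuba (chromosome 14, 54567472 to 54577558), a LIM-domain gene whose product inhibits LATS kinases, was at 84.7 and 78.8 CPM in NC and at 86.1 and 92.0 CPM in KO. Its groups did not overlap, but the difference did not pass the test (0.12, SE 0.094, 95% interval -0.069 to 0.32, adjusted p = 0.313). Lats2 (chromosome 14, 57689662 to 57758388), the kinase gene, was at 28.3 and 25.0 CPM in NC and at 19.1 in both KO libraries. It was 0.72 times the NC level (-0.48, SE 0.13, adjusted p = 0.00467), the only member lower past 0.05. Without NC 1 the Lats2 value was -0.39 (adjusted p = 0.0517).

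**Figure D4:**
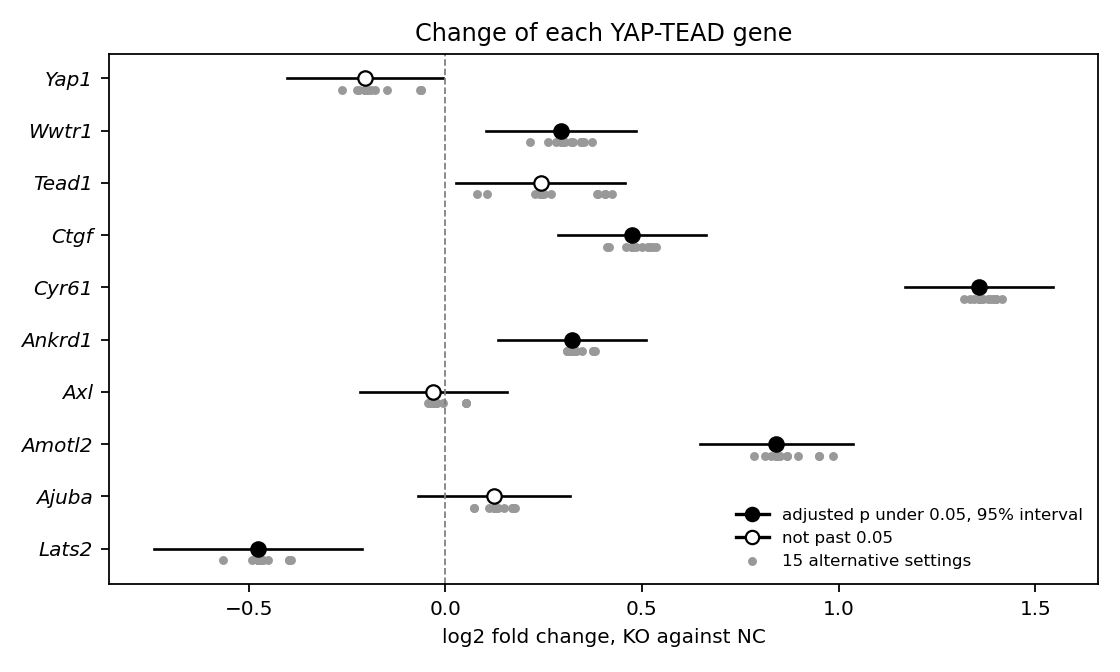
log2 fold change of KO against NC for each of the 10 genes (circles, filled where the adjusted p is under 0.05; bars, 95% intervals) with the values under 15 alternative settings as grey points below. Cyr61 (1.36) and Amotl2 (0.84) lie apart from the rest, Lats2 (-0.48) is the filled point below 0, and the grey points of Tead1 spread from 0.080 to 0.42.

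Per transcript length the order of the members also shifted. In NC, Axl was highest at 144.5 ± 4.33 TPM (SD, n = 2), followed by Ctgf at 120 ± 9.09, Ankrd1 at 58.0 ± 2.40 and Cyr61 at 57.0 ± 3.93. The libraries of Ankrd1 and Cyr61 overlapped in NC, as did those of Wwtr1 and Ajuba, of Yap1 and Tead1, and of Tead1 and Amotl2. In KO, Ctgf came first at 173 ± 15.2 TPM and Cyr61, at 152 ± 1.29, overlapped with Axl at 150.0 ± 4.16; no other neighbours in that order overlapped. Lats2 was lowest in both groups, at 6.11 ± 0.43 TPM in NC and 4.40 ± 0.16 in KO (SD, n = 2), below Amotl2 in NC and below Yap1 in KO.

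The kinases and upstream regulators of the pathway were described from a list of 19 further genes, of which 17 were tested. Of these, 5 were higher and 1 lower past 0.05, or 35.3%, close to the 37.9% of all genes, and the list's median log2 fold change was 0.13. Fat1, an atypical cadherin gene, stood at 283 ± 46.8 CPM (SD, n = 2) in the NC libraries, against 558 ± 11.4 CPM in KO, and its log2 value rose by 0.98 (SE 0.10, adjusted p = 2.84e-08). Wwc1, the scaffold KIBRA, rose by 0.43 (SE 0.098), the kinase genes Taok3 by 0.32 and Map4k4 by 0.29, and the scaffold Frmd6 by 0.26. Mob1a, which encodes the adaptor that activates LATS kinases, fell (-0.27, SE 0.092, adjusted p = 0.0198). The core kinase genes Stk3 (0.17), Stk4 (-0.040) and Lats1 (-0.073) did not pass the test, nor did Sav1 (-0.12) and Nf2 (0.13), genes chosen once their values were known. Fat1 overlaps exons of Gm2366 and Sav1 those of Atl1, both on the other strand. Without NC 1 the calls of Frmd6, Map4k4, Mob1a and Taok3 did not hold, while those of Fat1 and Wwc1 did. Mob1a was also lost without KO 1, and Frmd6 without KO 2, in DESeq2 and with no filter on low counts.

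Partners and inhibitors of YAP and TEAD formed a list of 17 genes, 13 of them tested, with 4 higher and 3 lower past 0.05 (53.8%, against 37.9% of all genes tested). The median was 0.014, and its sign was not stable, with -0.035 without NC 1, -0.088 without KO 1 and 0.107 without KO 2. Amotl1, a further angiomotin gene, stood at 20.8 ± 3.23 CPM (SD, n = 2) in the NC libraries, against 35.6 ± 2.98 CPM in KO, a log2 rise of 0.77 (SE 0.13, adjusted p = 2.83e-05). Ptpn14, a phosphatase gene whose product binds YAP, was counted 11 and 22 times in the NC libraries, against 34 and 39 times in KO (log2 fold change 1.07, SE 0.39, adjusted p = 0.0265). Csnk1e (0.31) and Btrc (0.34), which encode a kinase and a ubiquitin-ligase subunit that mark YAP and TAZ for degradation, were also higher. The 14-3-3 genes Ywhaz and Ywhab, whose products hold phosphorylated YAP in the cytoplasm among many other clients, fell. Ywhaz went from 691 ± 47.7 to 472 ± 2.23 CPM (-0.55, SE 0.093) and Ywhab from 470 ± 0.68 to 339 ± 4.57 CPM (-0.47, SE 0.090; SD, n = 2). The third gene that fell was Limd1 (-0.25, adjusted p = 0.0345), a LIM-domain relative of Ajuba named after its value was known, and it did not pass when any 1 library was left out. Vgll1, Vgll3 and Wtip had 0 counts in every library. Without NC 1, 3 genes of the list passed (Amotl1, Ywhaz and Ywhab), while Btrc, Csnk1e and Ptpn14 did not. Csnk1e was also lost without NC 2, and Ptpn14 without either KO library and in DESeq2. Btrc, Csnk1e and Ptpn14 overlap exons of predicted genes on the other strand.

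The list of 28 other YAP targets from published signatures had 23 tested genes, of which 8 were higher and 2 lower past 0.05 (43.5%), with a median log2 fold change of 0.066. Gadd45a, a growth-arrest and DNA-damage gene, stood at 4.89 ± 0.68 CPM (SD, n = 2) in the NC libraries, against 17.7 ± 1.16 CPM in KO, a log2 rise of 1.86 (SE 0.18, adjusted p = 4.94e-09), and Edn1, the endothelin gene, rose by 1.84 (SE 0.25). Arhgap29, a GTPase-activating protein gene, rose by 1.49, Gadd45b by 1.35 and Arhgef17, an exchange-factor gene, by 0.75. The 2 lower genes, named after their values were known, were Fst, the follistatin gene (-0.91), and Thbs1, the thrombospondin gene (-0.24, adjusted p = 0.0366), which was lost without NC 2 and without KO 1. Many of these genes also respond to TGF-beta, serum or stress. Some abundant signature genes passed and others did not, the latter including Igfbp3 (-0.023), Myof (-0.14) and Asap1 (-0.16), chosen once their values were known. The median of the list was -0.011 without NC 1. The 10 calls of the list held without NC 1. Edn1, Gadd45a, Fst and Thbs1 share exonic positions with genes on the opposite strand, and Arhgef17 with Mir3102 on the same strand.

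Genes of SRF and its MRTF coactivators, which share several targets with YAP, were described from a list of 18, of which 13 were tested. They split evenly, with 3 higher and 3 lower past 0.05 (46.2%, against 37.9% of all genes tested). The median of -0.034 changed sign with the setting: it was 0.26 on log2(TPM + 1) with a filter, 0.013 without NC 2 and 0.069 without KO 2, against -0.148 without KO 1. Vcl, the vinculin gene, went from 40.6 ± 6.75 to 76.6 ± 5.75 CPM (SD, n = 2; 0.91, SE 0.11, adjusted p = 2.71e-07), and Tpm2 rose by 1.31 (SE 0.30) from a low level of 1.98 to 4.94 CPM. Tagln2 (-0.60, SE 0.091) and Tpm1 (-0.59, SE 0.091), which encode actin-binding proteins and stood at 438 and 288 TPM in NC against 1.73 TPM for Tpm2, fell. Of the coactivator genes, Mkl2 was higher (0.43) and Mkl1 lower (-0.30). Without NC 1 Mkl2 did not pass (0.27, adjusted p = 0.141), and Mkl1 did not pass without NC 2, without KO 2 or in DESeq2. Vcl overlaps exons of Ap3m1, Mkl1 those of Sgsm3 and Mkl2 those of Gm15738, all on the other strand. The smooth-muscle genes Acta2, Actg2, Cnn1 and Myl9 had at most 1 count in a library, and Tagln had at most 8.27 expected counts.

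Relatives of the targets made up a list of 10 genes. Only 5 were tested, since the CCN-family genes Nov, Wisp1, Wisp2 and Wisp3 had at most 9 counts in a library and Ankrd2 at most 1. Of the 5, 4 were higher past 0.05 and 0 lower (80.0%, against 37.9% of all genes tested), with a median of 0.57. Axl did not pass the test, while both genes for the ligands of its receptor family rose: Gas6 went from 84.1 ± 1.77 to 127.6 ± 6.81 CPM (0.60, SE 0.093, adjusted p = 1.30e-05) and Pros1 from 18.3 ± 0.43 to 26.9 ± 2.28 CPM (0.56, SE 0.13; SD, n = 2). Of the other 2 receptors, Tyro3 rose by 0.48 (SE 0.17, adjusted p = 0.0255) and Mertk had 0.57 (adjusted p = 0.0594). Ankrd23, a relative of Ankrd1, rose by 0.68 (SE 0.23, adjusted p = 0.0202). Without NC 1, and likewise without KO 1, only Gas6 and Pros1 passed. Ankrd23 was lost whichever of the 4 libraries was left out, and in DESeq2 the calls of Ankrd23 and Tyro3 were lost. Gas6 overlaps exons of Tmem255b on the other strand and Ankrd23 those of Gm42417 on the same strand.

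**Figure D5:**
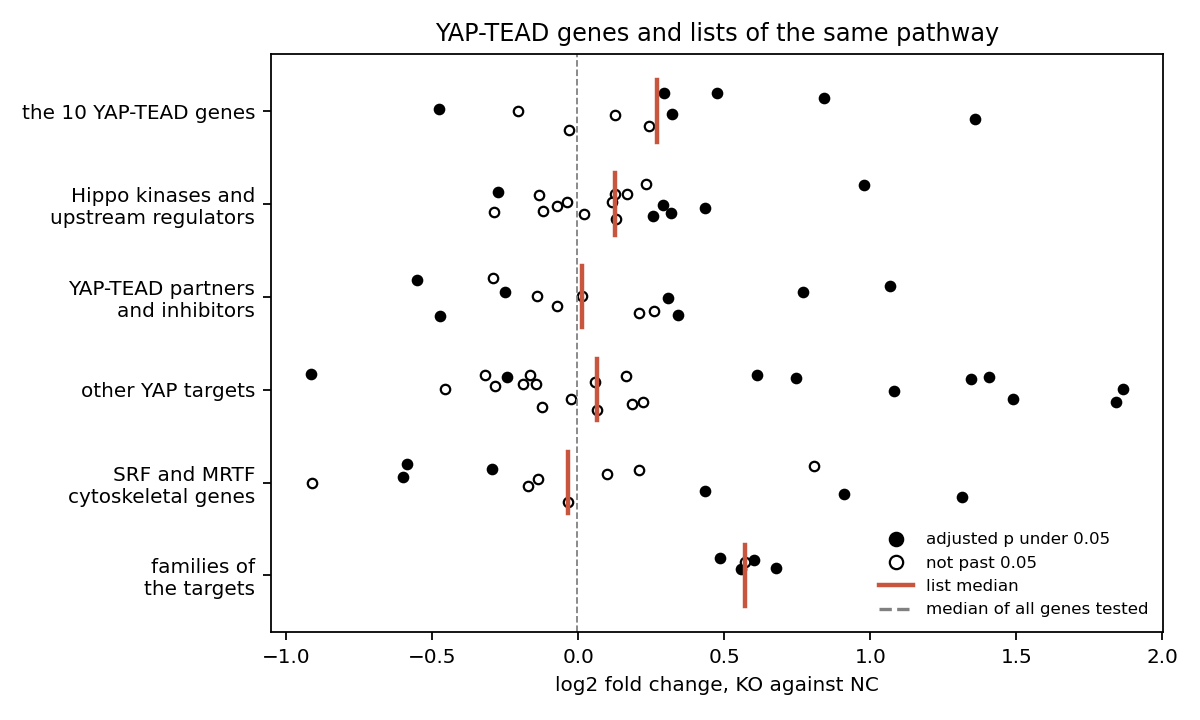
log2 fold change of KO against NC for the 10 genes and 5 further lists of the pathway (one point per tested gene, filled where the adjusted p is under 0.05; red bars, list medians; dashed line, median of all genes tested). The medians run from -0.034 for the SRF and MRTF list to 0.57 for the relatives of the targets, with 0.27 for the 10 genes.

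Bile duct and progenitor markers were set beside these genes, since YAP acts on that identity in the liver. Of 8 listed, 7 were tested, 3 were higher and 1 lower past 0.05 (57.1%, against 37.9% of all genes tested), with a median of 0.079. Krt7 (0.76, SE 0.094) and Krt19 (0.73, SE 0.10), keratins of bile duct cells, and Epcam (0.58) were higher, while Sox9 (-0.52, SE 0.11), a transcription factor of the same lineage, was lower. Of the 10 hepatocyte markers, 8 were tested, with 2 higher and 3 lower past 0.05 (62.5%) and a median of -0.11. Trf (0.54, SE 0.091) and Alb (0.41, SE 0.10), which encode the plasma proteins transferrin and albumin, were higher. Afp, the fetal liver gene (-1.21, SE 0.093), and Hnf4a (-0.995) and Foxa2 (-0.89), factors of the hepatocyte lineage, were lower. In bulk RNA, a change in the share of cells of a type and a change in RNA per cell cannot be told apart.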

How the data were processed

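Each library has one deposited table with a row per gene. The authors' expected counts are estimated reads per gene, not normalised, and the deposited TPM and FPKM values are the authors' length-scaled levels, per the file headers. FastQC, STAR, RSEM and DESeq2 and the builds GRCm38 and mm10 appear in the submitters' processing notes, while versions, annotation and strand setting were not given in the sources used here. FPKM entered no comparison.

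Expected counts were rounded to whole numbers (totals changed by at most 0.000188%), filtered with edgeR's filterByExpr, scaled by TMM (factors 0.981 to 1.02) and tested with edgeR 4.0.16 in R 4.3.3 (quasi-likelihood, group as the only term, two-sided, Benjamini-Hochberg over 12510 genes, threshold 0.05). Tests on simulated counts with known changes preceded it. Standard errors come from fitted weights and moderated dispersion (prior degrees of freedom 25.8). Alternatives used limma 3.58.1, DESeq2 1.42.0, other factors and filters, TPM and each library left out. Of 54838 gene IDs, 54723 matched GENCODE M21 (GRCm38), which gives positions (Ankrd1 by a later ID version). Promoters and the match of symbols are RefSeq's. All members are named, and from each further list the 6 genes with the lowest p past 0.05. A gene that meets this rule is not reported here. Genes named beyond this rule were chosen after their values were seen. The members, lists, motifs and tests were chosen with earlier results of these data known. Intervals cover counting error and the spread of these libraries, and PCR copies were not separated.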

Additional observations from a re-analysis of the deposited data

How the results depend on the processing

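All 10 genes kept the sign of their change under the 15 alternatives, except Axl, which turned to 0.053 in the fits on log2(TPM + 1), filtered and unfiltered, and to 0.054 on log2(TPM + 0.1). The fits on log2(TPM + 1) and log2(TPM + 0.1) with a filter passed 1426 and 786 of all genes against 4741, 75.6% and 81.9% of them higher against 51.9%. Among the 10 genes 2 passed in each (Cyr61 and Amotl2), 2 higher and 0 lower. The further lists gave 14 and 8 calls in these fits, of 33 as reported: 1 and 0 for kinases and regulators, 0 and 0 for partners, 8 and 7 for other YAP targets, 3 and 1 for SRF and MRTF genes, and 2 and 0 for relatives of the targets. Without a filter on low TPM, 0 genes passed in limma in total, in the 10 genes and in each list, with 4730 at an unadjusted p under 0.05, 6 of them among the 10. The causes were not tested.

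In the 3 TPM fits (filtered with pseudocount 1, filtered with 0.1, unfiltered) Wwtr1 had 0.35, 0.35 and 0.35, Ctgf 0.52, 0.52 and 0.52, Ankrd1 0.38, 0.38 and 0.38, and Lats2 -0.40, -0.46 and -0.40, none past 0.05 (adjusted p from 0.0628 to 0.203). Cyr61 (1.40) and Amotl2 (0.95) missed 0.05 in the unfiltered fit alone (adjusted p = 0.0645 for both). Tead1 passed with upper-quartile factors (0.27), in the robust fit (0.24) and with the replicate block (0.24). DESeq2 called 3217 of all genes, and 2 relatives of the targets.

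Leaving out 1 library gave 3507 to 4488 calls over all genes, 3 to 7 among the 10 genes, 3 to 6 of them higher and 0 to 1 lower, 3 to 6 among kinases and regulators, 3 to 6 among partners, and 2 to 3 among relatives of the targets. Ranges were 0.22 to 0.37 for Wwtr1, 0.080 to 0.39 for Tead1, 0.31 to 0.33 for Ankrd1 and -0.57 to -0.39 for Lats2. The labels do not say whether replicate numbers pair the libraries. The differences between first and second libraries of NC and KO correlated at 0.0041 across genes. That value cannot show whether libraries of the same number shared a culture or batch. With the replicate block 5006 of all genes passed, against 4741 as reported. For the 28 list genes named by the rule and Acvr2a, 343 of 433 values kept direction and side of 0.05, 90 lost the call (63 in TPM fits) and 0 reversed.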
